A study of Mus musculus with 6 samples.

Results

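Type I interferon-stimulated genes encode the antiviral proteins that a cell makes after interferon-alpha or interferon-beta has bound its receptor. The set examined held 41 mouse genes chosen by symbol, with earlier results of these data known, so its counts are no independent check. Of these genes, 40 had a probe set with that symbol on the array, out of 19505 named genes in all. Ifi44 had none and was not analysed. Each of the 40 genes was read by 1 probe set. The RNA came from cultured mouse cardiac fibroblasts (CF), which make the heart's matrix, and cardiomyocytes (CM), which contract, and was read on 6 Affymetrix arrays. Each cell type was kept for 48 h with what Ccrl2+ macrophages secrete, with what Ccrl2- macrophages secrete, or with phosphate-buffered saline (PBS), which the titles call sham. Ccrl2 is a chemokine-receptor-like protein, and the comparisons ask what each macrophage population does to the heart cells. The macrophages were sorted from 6 pooled hearts of wild-type mice 1 week after TAC, a narrowing of the aorta that loads the heart with pressure, and the labels of all 6 arrays give the strain C57BL/6N and an age of 15 to 16 weeks. Some labels speak of co-culture with macrophages and others of their secretome, so whether macrophages themselves were present cannot be told from the labels. There was 1 array in each of the 6 groups. No difference below therefore has a replicate check, and no test or error could be computed.

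In textbook outline, interferon-alpha and interferon-beta bind the receptor chains Ifnar1 and Ifnar2, and the kinases Jak1 and Tyk2 then act on Stat2. With Irf9 it is part of a transcription factor complex that binds the interferon-stimulated response element in the promoters of the genes described here. Interferon-gamma signals through Ifngr1, Ifngr2, Jak1 and Jak2 and acts at gamma-activated sites, and the genes of both responses overlap in part. Intracellular sensors of viral nucleic acid, and Toll-like receptors, induce interferon and some of its target genes, and fibroblasts, muscle cells and macrophages can all mount the response.

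Values are log2 probe set summaries, so a difference of 1 is 2-fold. The floor used for counting was 6.55, the median of all named values, and a 2-fold difference was counted only if at least 1 of both values reached it. Negative control probe sets had medians of 6.2 to 6.71 on the 6 arrays and a 95th percentile of 10.51 over all arrays, so many values given below lie in the range of the controls. The fibroblast arrays carried their markers, with Col1a1 between 15.69 and 16.63, and the cardiomyocyte arrays carried theirs, with Myh6 between 17.26 and 17.32. Both cultures also held transcripts of macrophages, and the cardiomyocyte cultures held those of endothelial cells, with Pecam1 between 13.87 and 14.11. Ccrl2 itself lay at 7.03 in CF with the Ccrl2+ secretome, 11.37 with the Ccrl2- secretome and 6.5 in PBS. These values are of the cultures, and whether macrophages contributed to them was not tested. In cardiomyocytes it lay at 7.61, 7.45 and 7.77 in the same order of groups. Probe sets of Ifit1, Ifit3, Ifit3b, Ifi204, Ifi207, Oas1a, Trim30a, Slfn2 and other genes with near-identical relatives may also take up signal from those relatives, and their values are uncertain to that extent.

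To show the response element and where it is missing, the promoters of 9 members are given, each 250 bases before to 50 bases after the gene's start, from RefSeq, assembly GRCm38.p6. They are Ifit1, Ifit3, Ifit3b and Ifit2, which lie near each other on chromosome 19 and differed in value, and the genes with the largest difference in fibroblasts among members of their role that hold the element (Isg15, Trim30a, Stat2 and Ifih1), with Rsad2, which had the largest difference in cardiomyocytes with the Ccrl2- secretome. The windows are chr19:34640639-34640938 (plus strand, Ifit1), chr19:34583279-34583578 (plus, Ifit3), chr19:34607707-34608006 (plus, Ifit3b), chr19:34550444-34550743 (plus, the upstream of 2 Ifit2 starts), chr4:156200769-156201068 (minus, Isg15), chr7:104465144-104465443 (minus, the upstream of 2 Trim30a starts), chr12:26456403-26456702 (minus, Rsad2), chr10:128270248-128270547 (plus, Stat2) and chr2:62646206-62646505 (minus, Ifih1). Sequences are written 5′ to 3′ on the gene's strand. Capitals mark each match to GAAA, any 2 bases, GAAA, the core of the interferon-stimulated response element, on either strand, so that a match on the opposite strand reads TTTC, 2 bases, TTTC.
Ifit1: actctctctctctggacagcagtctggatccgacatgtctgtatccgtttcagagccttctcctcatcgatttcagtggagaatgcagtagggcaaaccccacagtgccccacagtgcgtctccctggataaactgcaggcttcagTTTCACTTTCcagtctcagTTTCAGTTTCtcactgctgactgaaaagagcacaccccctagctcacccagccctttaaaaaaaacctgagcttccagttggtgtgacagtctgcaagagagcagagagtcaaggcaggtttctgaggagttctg
Ifit3: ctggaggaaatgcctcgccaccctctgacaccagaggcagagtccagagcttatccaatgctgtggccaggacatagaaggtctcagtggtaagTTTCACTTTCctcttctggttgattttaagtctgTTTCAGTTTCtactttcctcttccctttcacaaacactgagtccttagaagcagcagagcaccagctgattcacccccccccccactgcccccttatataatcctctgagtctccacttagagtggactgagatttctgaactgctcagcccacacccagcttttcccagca
Ifit3b: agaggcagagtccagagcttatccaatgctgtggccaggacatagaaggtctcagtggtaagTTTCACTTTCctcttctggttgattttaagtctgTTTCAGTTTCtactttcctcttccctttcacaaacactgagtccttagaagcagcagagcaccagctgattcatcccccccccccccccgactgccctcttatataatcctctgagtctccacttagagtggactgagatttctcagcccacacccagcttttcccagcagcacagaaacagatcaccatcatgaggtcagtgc
Ifit2: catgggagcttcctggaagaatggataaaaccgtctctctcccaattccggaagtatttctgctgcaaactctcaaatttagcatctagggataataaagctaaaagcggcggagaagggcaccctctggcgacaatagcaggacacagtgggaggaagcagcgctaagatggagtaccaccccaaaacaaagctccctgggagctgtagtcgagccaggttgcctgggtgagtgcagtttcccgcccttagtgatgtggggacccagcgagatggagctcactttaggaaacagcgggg
Isg15: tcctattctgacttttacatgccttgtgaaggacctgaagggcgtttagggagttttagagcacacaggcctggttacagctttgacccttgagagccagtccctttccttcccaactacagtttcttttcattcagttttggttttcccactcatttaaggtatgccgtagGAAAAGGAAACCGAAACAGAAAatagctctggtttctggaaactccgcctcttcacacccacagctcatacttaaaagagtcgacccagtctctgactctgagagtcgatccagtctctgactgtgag
Trim30a: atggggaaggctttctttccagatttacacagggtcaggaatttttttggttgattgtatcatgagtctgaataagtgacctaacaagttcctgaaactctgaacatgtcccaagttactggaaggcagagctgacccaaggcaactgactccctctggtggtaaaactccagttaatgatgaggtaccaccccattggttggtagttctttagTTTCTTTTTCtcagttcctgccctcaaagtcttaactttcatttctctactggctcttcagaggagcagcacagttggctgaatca
Rsad2: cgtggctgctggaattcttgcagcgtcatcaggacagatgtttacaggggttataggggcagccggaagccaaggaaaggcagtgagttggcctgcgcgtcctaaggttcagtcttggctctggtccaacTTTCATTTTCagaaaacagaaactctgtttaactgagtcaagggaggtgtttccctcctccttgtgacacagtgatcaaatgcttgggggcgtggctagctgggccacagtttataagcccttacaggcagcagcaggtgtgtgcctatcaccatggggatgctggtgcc
Stat2: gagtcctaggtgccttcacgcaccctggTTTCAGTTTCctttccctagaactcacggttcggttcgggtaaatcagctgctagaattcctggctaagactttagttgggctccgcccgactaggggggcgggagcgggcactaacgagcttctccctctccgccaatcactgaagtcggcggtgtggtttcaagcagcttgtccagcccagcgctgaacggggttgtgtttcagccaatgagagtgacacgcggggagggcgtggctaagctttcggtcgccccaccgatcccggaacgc
Ifih1: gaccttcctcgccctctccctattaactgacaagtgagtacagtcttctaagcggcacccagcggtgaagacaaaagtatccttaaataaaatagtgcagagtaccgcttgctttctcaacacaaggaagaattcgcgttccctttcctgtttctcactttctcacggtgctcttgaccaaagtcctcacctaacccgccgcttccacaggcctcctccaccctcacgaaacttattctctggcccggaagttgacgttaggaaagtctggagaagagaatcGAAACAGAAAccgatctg

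The element core lay on the opposite strand in Ifit1, at positions -104 to -95 and -85 to -76 counted from the start, and on the gene's own strand in Isg15, as 3 overlapping matches from -78 to -57. Ifit3 and Ifit3b shared a run of 169 identical bases, which held both matches of each gene. Neither Ifit2 window held a match. Promoters were in the table for 30 of the 40 genes, and 15 of the 30 had at least 1 match, which is 50% of them, against 3.99% of all 27025 genes in the table. A gamma-activated site, TTCNNNGAA, which reads the same on both strands, was found in 7 of the 30 (23.3%), namely Bst2, Eif2ak2, Ifi35, Ifit2, Ifitm3, Irf1 and Oas1a, and in 9.55% of all genes. Matches of these letters were counted on both strands, overlapping ones included, and they describe the sequence and not binding. The 10 genes without a promoter in the table were Usp18, Oas2, Rtp4, Mx2, Mx1, Ifi204, Dhx58, Parp14, Parp9 and Parp10. In fibroblasts with the Ccrl2- secretome, the median difference from PBS was 2.3 for the 15 genes with the element core. It was 3.07 for the 15 genes with a window and no match. These medians include genes below the floor on both arrays, Oas1a and Oas3 with the core and Oasl1 without it. The differences spanned 0.02 to 6.12 with the core and 0.04 to 4.89 without it, so no order of these groups is given for fibroblasts. In cardiomyocytes the median was -0.94 with the core and -0.6 without it for Ccrl2+, and -0.86 and -0.54 for Ccrl2-. For Ccrl2+ the differences spanned -2.09 to 0.06 with the core and -1.41 to -0.06 without it. For Ccrl2- they spanned -2.56 to 0.27 and -1.45 to 0.19, so no order is given for cardiomyocytes either. Genes below the floor on every cardiomyocyte array are included, Isg15, Oas1a and Oas3 with the core and Irf7 and Oasl1 without it. All of this is a description with no test.

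**Figure D1:**
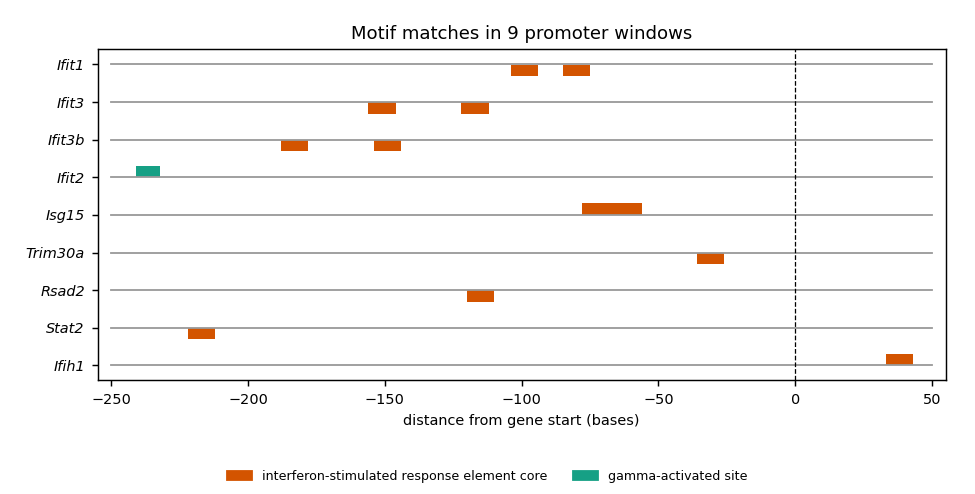
Positions of motif matches in the promoter windows of 9 genes, with distance from the gene start in bases on the horizontal axis. Bars above a line are matches on the gene's own strand, bars below it on the opposite strand, and the dashed line is the start. Ifit1, Ifit3 and Ifit3b hold 2 matches to the response element core each, and Ifit2 holds none.

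The fibroblast culture with the Ccrl2- secretome stood far above the other fibroblast arrays in nearly every gene of the set. Of the 40 genes, 39 had their highest of the 3 fibroblast values on this array, against 30.1% of all genes, and the exception was Ifi207. Against PBS, 2-fold or higher values were found for 34 of the 36 genes past the floor and 2-fold lower ones for 0, where 6.18% of all 10057 genes past the floor were higher and 4.83% lower. Ifit2 and Irf9 were past the floor and not 2-fold different. Oas1a, Oas2, Oas3 and Oasl1 lay below the floor on both arrays. Of the 36 genes, 9 passed only because of the Ccrl2- array and so had to be higher. Among the 27 genes past the floor on both arrays 25 were at least 2-fold higher, against 4.72% of all such genes, and without any floor 35 of 40 were, against 3.66%. The median difference of the 40 genes was 3.05 and the middle 50% lay between 1.74 and 3.92, while the median of all genes past the floor was -0.09. Among control probe sets past the floor 6.84% were 2-fold higher and 6.21% lower. In these bulk cultures, fewer or more cells of a type and less or more RNA per cell cannot be told apart.

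**Figure D2:**
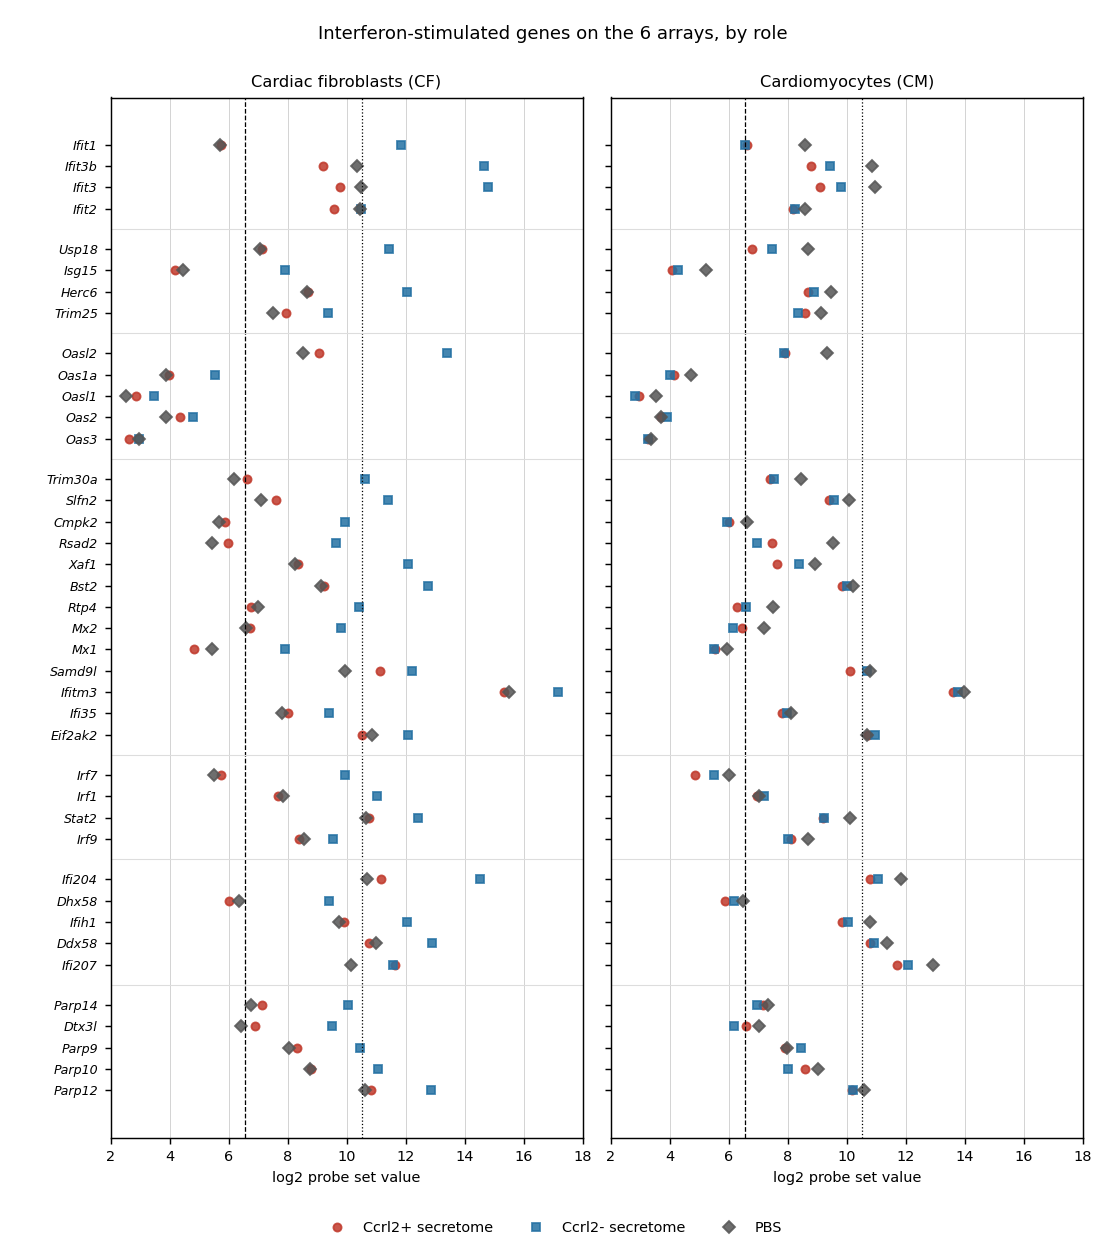
The log2 probe set value of each of the 40 genes, grouped by role, on the 3 fibroblast arrays (left) and the 3 cardiomyocyte arrays (right), 1 point per array. The dashed line is the floor of 6.55 and the dotted line is 10.51, the 95th percentile of the negative control probe sets. In fibroblasts the Ccrl2- point is the highest for 39 genes, and in cardiomyocytes the PBS point is the highest for 36.

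The IFIT proteins bind foreign RNA and block its translation, and their genes lie near each other on chromosome 19. Ifit1, which recognises RNA without the host's cap methylation, lay at 5.74 with the Ccrl2+ secretome, 11.83 with the Ccrl2- secretome and 5.71 in PBS, so it was at least 38.9-fold higher with Ccrl2- than in PBS when measured from the floor. Ifit3, a partner of Ifit1, lay at 9.77, 14.8 and 10.49 on the same 3 arrays. Its close copy Ifit3b lay at 9.2, 14.67 and 10.35. The Ccrl2- array stood alone above the other 2 in these genes, and the Ccrl2+ array was the lowest for Ifit3 and Ifit3b. Ifit2, whose product also binds RNA, did not share this pattern, at 9.59 with Ccrl2+, 10.49 with Ccrl2- and 10.45 in PBS.

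Isg15 is a ubiquitin-like protein that is attached to other proteins, Herc6 is the mouse ligase that attaches it, and Usp18 removes it and also dampens signalling at the interferon receptor. Usp18 lay at 7.13 with the Ccrl2+ secretome, 11.45 with the Ccrl2- secretome and 7.07 in PBS, a 20.8-fold difference of Ccrl2- over PBS. Herc6 lay at 8.68, 12.05 and 8.65, and Isg15 at 4.18, 7.93 and 4.46, where only the Ccrl2- value reached the floor. Trim25, a ubiquitin ligase that acts on the RNA sensor RIG-I, differed least of this group, at 7.96, 9.36 and 7.5. All 4 genes were at least 2-fold higher with Ccrl2- than in PBS, and the Ccrl2+ and PBS values lay within 0.46 of each other in each of them.

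The OAS proteins make 2′-5′-linked oligoadenylates that activate the nuclease RNase L, and the OAS-like proteins are their relatives. Oasl2 lay at 9.08 with the Ccrl2+ secretome, 13.41 with the Ccrl2- secretome and 8.52 in PBS, 29.7-fold higher with Ccrl2- than in PBS. Its neighbour Oasl1 lay between 2.54 and 3.46 on the same arrays. Oas1a, Oas2 and Oas3 lay below the floor on all 6 arrays, between 2.64 and 5.53, so no direction is given for them.

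The remaining antiviral effectors, 13 genes on the array, were all at least 2-fold higher with the Ccrl2- secretome than in PBS. Among those past the floor on both arrays, the differences ran from 1.21 in Eif2ak2, the kinase PKR that halts translation on double-stranded RNA, to 4.33 in Slfn2. Trim30a, a tripartite motif protein, lay at 6.62 with Ccrl2+, 10.64 with Ccrl2- and 6.18 in PBS. Rsad2 encodes viperin, which makes a chain-terminating nucleotide, and it lay at 5.97, 9.65 and 5.44. Cmpk2, the neighbour of Rsad2 and a nucleotide kinase of mitochondria, lay at 5.88, 9.95 and 5.69. In these 3 genes the PBS value was below the floor, and the differences from the floor were at least 4.09, 3.1 and 3.4 in the same order. The GTPase genes Mx2 (6.73, 9.8 and 6.59) and Mx1 (4.84, 7.92 and 5.44) also had their highest value with Ccrl2-, and only that value of Mx1 reached the floor. Bst2, the tether of budding viruses, lay at 9.25, 12.75 and 9.12, and Xaf1, a pro-apoptotic protein, at 8.36, 12.1 and 8.27. Ifitm3, a membrane protein that blocks virus entry, was high everywhere, at 15.33, 17.18 and 15.5, and was 3.2-fold higher with Ccrl2- than in PBS. Rtp4, Samd9l and Ifi35 were higher by 3.41, 2.25 and 1.6. Samd9l was an intermediate case, at 11.14 with Ccrl2+, between 12.21 with Ccrl2- and 9.96 in PBS.

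Among transcription factors, Irf7, which drives interferon-alpha genes, lay at 5.75 with the Ccrl2+ secretome, 9.96 with the Ccrl2- secretome and 5.51 in PBS, at least 3.41 higher with Ccrl2- than in PBS. Irf1, which is also induced by interferon-gamma and by NF-kB, lay at 7.68, 11.05 and 7.85. The genes of the complex that carries the signal differed less. Stat2 lay at 10.77, 12.43 and 10.67, and Irf9 at 8.38, 9.53 and 8.57, which at 0.96 was just under the 2-fold limit. Eif2ak2, at 1.21, was the nearest gene past the limit.

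The sensors of the set were all at least 2-fold higher with Ccrl2- than in PBS. Ifih1 (MDA5, a sensor of long double-stranded RNA) lay at 9.93 with Ccrl2+, 12.04 with Ccrl2- and 9.74 in PBS, and Ddx58 (RIG-I) at 10.75, 12.89 and 11.01. Dhx58 (LGP2, which regulates both) lay at 6.0, 9.41 and 6.37. The family of interferon-inducible DNA-binding proteins split. Ifi204 lay at 11.16, 14.51 and 10.68, while its neighbour Ifi207 lay at 11.65, 11.56 and 10.16, so the Ccrl2+ and Ccrl2- arrays stood together above PBS for Ifi207. The PARP genes, which encode enzymes and binders of ADP-ribose, and Dtx3l, the ubiquitin ligase partner of Parp9, lay in a narrow band, from 2.22 higher in Parp12 to 3.27 in Parp14. Parp14 lay at 7.15 with Ccrl2+, 10.04 with Ccrl2- and 6.77 in PBS, and its neighbours Dtx3l and Parp9 at 6.91, 9.51 and 6.44 and at 8.31, 10.46 and 8.05. Parp10 was higher by 2.33.

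Fibroblasts with the Ccrl2+ secretome differed little from PBS in this set. Of 29 genes past the floor 2 stood 2-fold or more higher, against 4.87% of all 10042 genes, and 1 was lower, against 6.13%. The higher genes were Ifi207 (by 1.49) and Samd9l (by 1.18), and the lower one was Ifit3b (-1.15). The median difference of the 40 genes was 0.12. Of the controls past the floor, 8.52% lay 2-fold or more above PBS and 11.2% below. Set directly against the Ccrl2- array, 34 of 36 genes past the floor stood 2-fold or more lower with Ccrl2+ and 0 higher, where 10.1% of all 10144 genes were lower and 8.55% higher. Among the 29 genes past the floor on both arrays 27 were lower, against 8.36% of all such genes. The exceptions past the floor were Ifit2, at 9.59 with Ccrl2+ and 10.49 with Ccrl2-, and Ifi207. The comparison shares the Ccrl2- array with the one above and the Ccrl2+ array with the one just given, so the values are not independent. Of the control probe sets, 11.3% were at least 2-fold lower and 7.75% higher. Which of these differences would recur in a further culture was not tested.

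**Figure D3:**
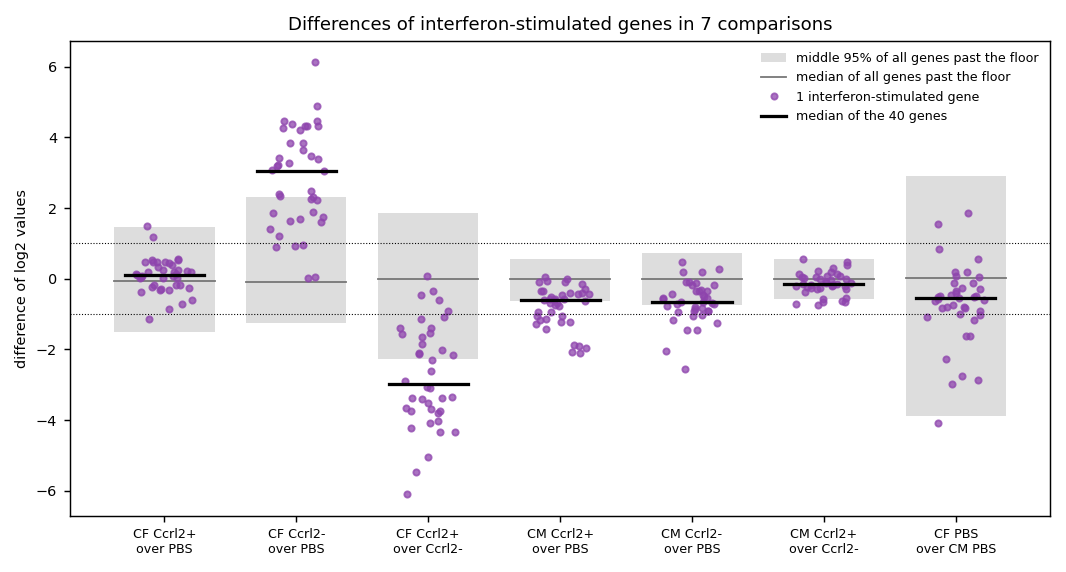
Differences of log2 values in 7 comparisons (vertical axis), 1 point for each of the 40 genes, with their median as a black bar, over the middle 95% of all genes past the floor in grey. Dotted lines mark 2-fold. The medians are 3.05 for CF Ccrl2- over PBS, -0.61 for CM Ccrl2+ over PBS and -0.67 for CM Ccrl2- over PBS.

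In cardiomyocytes it was the PBS array that carried the highest values. In 36 of the 40 genes PBS was the highest of the 3 cardiomyocyte arrays, against 34.9% of all genes, and the exceptions were Eif2ak2, Irf1, Oas2 and Parp9. With the Ccrl2+ secretome 11 of 32 genes past the floor stood 2-fold or more lower than in PBS and 0 higher, where 0.629% of all 10009 genes past the floor were lower and 0.21% higher. These 11 were among 63 such genes on the whole array. With the Ccrl2- secretome 8 of 32 were lower and 0 higher, where 0.786% of all 10054 genes (79 genes) were lower and 0.746% higher. Both comparisons use the same PBS array, so a deviation of that culture would enter both. Of the 32 genes, 3 passed the floor only on the PBS array in each comparison. Among the 29 genes past the floor on both arrays, 10 were lower with Ccrl2+ (0.531% of all such genes) and 7 with Ccrl2- (0.574%). The median difference of the 40 genes was -0.61 with Ccrl2+ and -0.67 with Ccrl2-, against -0.01 and -0.02 for all genes past the floor. Negative control probe sets varied more than genes here: 6.8% of those past the floor stood 2-fold or more lower with Ccrl2+ and 9.77% with Ccrl2-, and 6.06% and 7.93% were higher.

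Rsad2 had the largest difference with the Ccrl2- secretome, and lay at 7.45 with the Ccrl2+ secretome, 6.97 with the Ccrl2- secretome and 9.53 in PBS. It was 4.23-fold lower than in PBS with Ccrl2+ and 5.9-fold lower with Ccrl2-, while with Ccrl2+ Ifit3b differed about as much (4.26-fold lower). Ifit1 lay at 6.62, 6.55 and 8.58, and Ifit3 and Ifit3b lay at 9.09, 9.8 and 10.96 and at 8.77, 9.42 and 10.86. In all 4 genes both secretome arrays lay below PBS by more than 1 log2 unit, and for Ifit3 and Ifit3b the Ccrl2+ array was the lower. Usp18 lay at 6.8, 7.45 and 8.69, and Oasl2 at 7.9, 7.86 and 9.31. Trim30a lay at 7.39 with Ccrl2+, 7.52 with Ccrl2- and 8.45 in PBS, and Xaf1 at 7.64, 8.37 and 8.91. For the DNA-binding family, Ifi204 lay at 10.8, 11.05 and 11.84 and Ifi207 at 11.69, 12.06 and 12.92. These 4 genes were 2-fold lower with Ccrl2+ and not with Ccrl2-, but the arrays of both secretomes differed from each other by at most 0.73 in any of them. Rtp4, a chaperone of membrane receptors, lay at 6.27, 6.57 and 7.48, at least 0.93 lower with Ccrl2+ when measured from the floor. With Ccrl2-, Mx2 (6.14 against 7.18 in PBS) was at least 0.63 lower from the floor, and Parp10 lay at 8.01 against 9.03 in PBS.

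The other members did not reach 2-fold past the floor in cardiomyocytes, and only some of them lay close to PBS. Irf1 lay at 6.95 with Ccrl2+, 7.2 with Ccrl2- and 7.01 in PBS, Eif2ak2 at 10.73, 10.94 and 10.67, and Ifitm3 at 13.61, 13.78 and 13.96. Stat2 (9.19, 9.21 and 10.12) and Irf9 (8.09, 8.02 and 8.69) were lower by 0.6 to 0.93 and did not reach 2-fold. Isg15 lay at 4.08, 4.29 and 5.21, below the floor on all 3 arrays. Between the secretomes no gene of the set reached 2-fold, with 0 of 30 higher and 0 of 30 lower with Ccrl2+ than with Ccrl2- (0.13% and 0.18% of all genes), and the median difference was -0.16. The largest were -0.73 in Xaf1 and 0.56 in Parp10. With 1 array each, this does not show that the secretomes act alike.

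The PBS cultures of both cell types also differed. Among 32 genes past the floor 10 stood 2-fold or more lower in CF than in CM and 2 higher, where 16.9% of all 10394 genes were lower and 13.9% higher. Of the 32 genes, 5 passed the floor only on the CM array and so had to be lower in CF. Rsad2 lay at 5.44 in CF and 9.53 in CM, at least 2.98 lower in CF. Slfn2 lay at 7.09 in CF and 10.07 in CM, and Ifit1 at 5.71 in CF and 8.58 in CM, at least 2.03 lower. Ifi207 (10.16 in CF and 12.92 in CM) and Trim30a (6.18 and 8.45, at least 1.9 lower in CF) stood in the same order. Ifit2 (10.45 in CF and 8.59 in CM) and Ifitm3 (15.5 and 13.96) were the genes that were higher in CF. The control probe sets also differed between these arrays, with 25.8% of those past the floor at least 2-fold higher in CF and 4.87% lower.

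Interferon genes themselves lay near or below the floor. Ifnb1 lay between 3.85 and 4.12 on the 6 arrays, and Ifna1, Ifna2, Ifna4, Ifnab, Ifne and Ifnk lay between 2.62 and 5.89, all under it. Ifna5 lay at 6.94 in CF with Ccrl2+, 6.74 with Ccrl2- and 6.06 in PBS, and between 6.39 and 6.84 in CM. Ifng lay between 4.02 and 5.03, and Ifnl2 and Ifnl3 between 5.16 and 6.58. Since the cells were collected at 48 h, an earlier interferon transcript would not be recorded, and interferon protein was not measured on these arrays. The receptor chains were well measured. Ifnar1 lay at 11.67 in CF with Ccrl2+, 12.75 with Ccrl2- and 11.29 in PBS, and Ifnar2 at 13.61, 14.96 and 13.54, so both were at least 2-fold higher with Ccrl2- than in PBS. In CM Ifnar1 lay between 10.67 and 10.91 and Ifnar2 between 13.62 and 13.83. The interferon-gamma receptor genes Ifngr1 (12.39 with Ccrl2+, 12.28 with Ccrl2- and 11.34 in PBS) and Ifngr2 (12.73, 13.25 and 12.57) were higher in CF by 0.94 and 0.68 with Ccrl2- than in PBS.

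Of 8 signalling genes on the array, Jak2, the kinase of the interferon-gamma receptor, was the only one at 2-fold with Ccrl2- over PBS in CF, at 11.31 with Ccrl2+, 14.18 with Ccrl2- and 10.82 in PBS. Jak1 and Tyk2, the kinases of the interferon-alpha and interferon-beta receptor, lay at 10.88, 11.5 and 10.96 and at 10.46, 9.95 and 9.97. Irf2, a repressor that competes with Irf1, was the gene that stood out with Ccrl2+, at 12.19 against 10.57 in PBS, and lay at 11.1 with Ccrl2-. Of 13 sensors and adaptors on the array 12 passed the floor, and 6 were at least 2-fold higher with Ccrl2- than in PBS and 1 lower. Of the 12, Zbp1 passed only on the Ccrl2- array and so had to be higher. Of all genes past the floor, 6.18% were higher and 4.83% lower. Tlr3, the endosomal receptor of double-stranded RNA, lay at 10.38 with Ccrl2+, 12.2 with Ccrl2- and 9.63 in PBS, and the kinase gene Ikbke at 8.41, 10.38 and 7.88. Zbp1, a sensor of Z-form nucleic acid, lay at 4.64, 7.91 and 4.33, at least 1.36 higher with Ccrl2-. Tbk1, Myd88 and Sting1 were higher by 1.33, 1.12 and 1.02. Tlr7, the receptor of single-stranded RNA, went the other way, at 12.43 with Ccrl2+, 10.23 with Ccrl2- and 11.65 in PBS. Among these 13 genes it was also the only one at 2-fold in CM, at 10.96 with Ccrl2+, 11.32 with Ccrl2- and 12.44 in PBS. Among the brakes on signalling, Ptpn2 was higher with Ccrl2- than in PBS in CF by 1.05, and Socs3 (6.81 with Ccrl2- and 5.39 in PBS) by at least 0.26 from the floor. Socs1 lay between 3.29 and 3.76 on all 6 arrays.

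**Figure D4:**
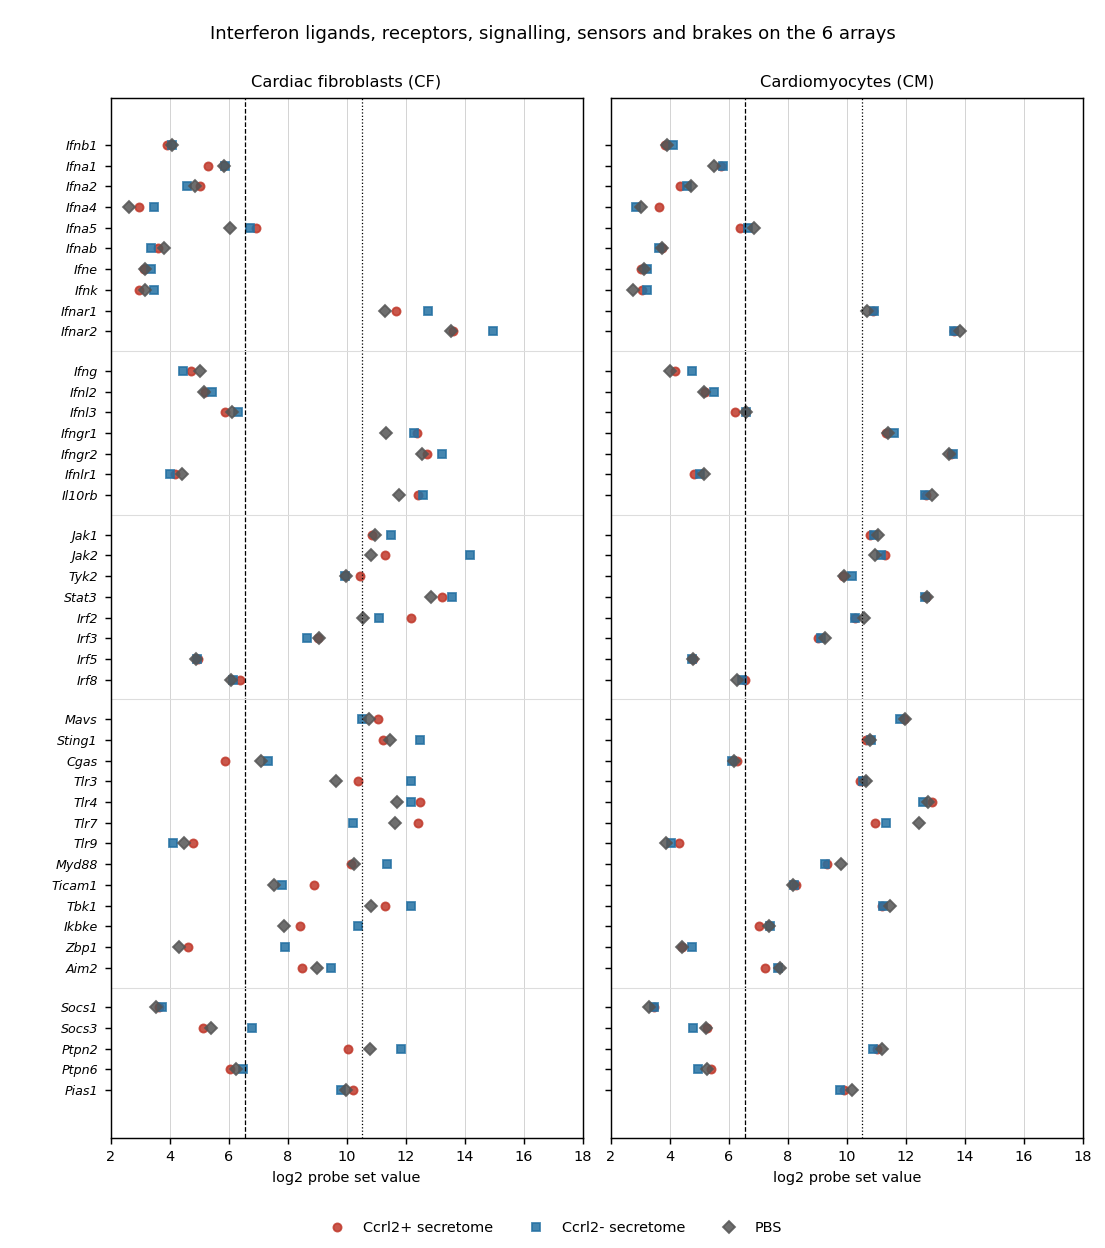
The log2 probe set value of interferon ligand and receptor, signalling, sensor and brake genes on the 3 fibroblast arrays (left) and the 3 cardiomyocyte arrays (right), 1 point per array. The dashed line is the floor of 6.55 and the dotted line the 95th percentile of the controls, 10.51. The ligand genes lie near or below the floor, while Ifnar1, Ifnar2 and Jak2 are highest in fibroblasts with the Ccrl2- secretome.

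Interferon-stimulated genes outside the set were also mostly higher in fibroblasts with Ccrl2-. This list too was chosen with earlier results of these data known. Of 35 on the array 29 passed the floor, 22 were at least 2-fold higher with Ccrl2- than in PBS and 1 was lower, where 6.18% of all genes past the floor were higher and 4.83% lower. Of the 29, 4 passed only on the Ccrl2- array and so had to be higher. The largest differences were those of Phf11b (9.96 with Ccrl2- and 5.81 in PBS, at least 3.41), the DNA-binding family gene Ifi211 (15.43 and 11.66), the Schlafen gene Slfn8 (9.47 and 5.81, at least 2.92), Mndal (12.6 and 9.05), Phf11d (11.96 and 8.69) and Lgals3bp (14.33 and 11.43). Ifi27 was the gene that was lower, at 9.32 with Ccrl2- and 10.44 in PBS. With Ccrl2+ 2 of 27 were at least 2-fold higher than in PBS, Ly6e (by 1.48) and Oas1c (by 1.21, or at least 0.1 from the floor), and 1 lower, Slfn9 (-1.22, or at least 1.08 from the floor), where 4.87% of all genes past the floor were higher and 6.13% lower. In CM, 3 of 27 were at least 2-fold lower with Ccrl2+ than in PBS, Ifi211 (-1.26), Mndal (-1.06) and Oas1b (-1.03, or at least 0.56 from the floor), and 0 with Ccrl2-. Of all genes past the floor, 0.629% were lower with Ccrl2+ and 0.786% with Ccrl2-. The list median in CM was -0.22 with Ccrl2+ and -0.28 with Ccrl2-, closer to 0 than in the set.

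Genes that interferon-gamma induces strongly were also higher in fibroblasts with Ccrl2-. Of 10 such genes 6 passed the floor, and these 6 were at least 2-fold higher than in PBS, although 3 of them passed only on the Ccrl2- array. Of all genes past the floor, 6.18% were higher. The chemokine gene Cxcl10 lay at 4.58 with Ccrl2+, 13.47 with Ccrl2- and 4.57 in PBS, and the guanylate-binding protein gene Gbp2 at 7.86, 15.1 and 7.44. Cxcl9, Cxcl11, Ciita and Ido1, which are also known as interferon-gamma targets, lay below the floor on all 6 arrays, between 3.03 and 5.22.

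Markers of other cell types differed along with these results. Of 12 macrophage markers on the array, 11 lay below PBS in CM with Ccrl2- and 12 with Ccrl2+, 0 and 5 of them by 2-fold (C1qa, C1qb, C1qc, Csf1r and Fcgr1). Of all genes past the floor, 0.786% and 0.629% were 2-fold lower in the same order. C1qb lay at 10.9 with Ccrl2+, 11.53 with Ccrl2- and 12.25 in PBS, and Ptprc, the pan-leukocyte gene, at 8.29, 8.6 and 8.86. The log2 of the summed level of the 12 markers in CM was 13.89 with Ccrl2+, 14.22 with Ccrl2- and 14.66 in PBS. Macrophages carry interferon-stimulated transcripts too, and the part of these cells in the cardiomyocyte values was not tested. Fibroblast markers were lowest in PBS by their summed level, at 16.04 with Ccrl2+, 16.3 with Ccrl2- and 15.83 in PBS, and 4 of 7 were at least 2-fold higher in CM with Ccrl2- than in PBS, among them Col3a1 (10.93 and 8.78). Of all genes past the floor, 0.746% were higher in that comparison. The 8 cardiomyocyte markers differed by at most 0.48 between any secretome array and PBS in CM. In fibroblasts 5 macrophage markers were at least 2-fold higher with Ccrl2- than in PBS, with Cybb (14.77 and 11.13) and Cd14 (11.3 and 8.54) the largest, and 5 were lower, such as C1qa (9.42 and 11.22). Of all genes past the floor, 6.18% were higher and 4.83% lower. The summed level of the macrophage markers was 14.99 with Ccrl2+, 15.7 with Ccrl2- and 14.42 in PBS on the log2 scale, and Ptprc lay at 9.18, 9.17 and 9.06. Cardiomyocyte markers differed in these cultures too, with a summed level of 17.12 with Ccrl2+, 15.21 with Ccrl2- and 16.19 in PBS on the log2 scale. Of these, all 7 that passed the floor stood 2-fold or more higher with Ccrl2+ than with Ccrl2- (median of the 8 markers 1.47). With Ccrl2+, 3 stood 2-fold or more above PBS. Of all genes past the floor, 8.55% and 4.87% were higher in these comparisons. The part of macrophages and cardiomyocytes in the fibroblast values was not tested either. All 3 markers of plasmacytoid dendritic cells, the main makers of interferon-alpha in blood, and all 4 neutrophil markers on the array lay below the floor on all 6 arrays.

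**Figure D5:**
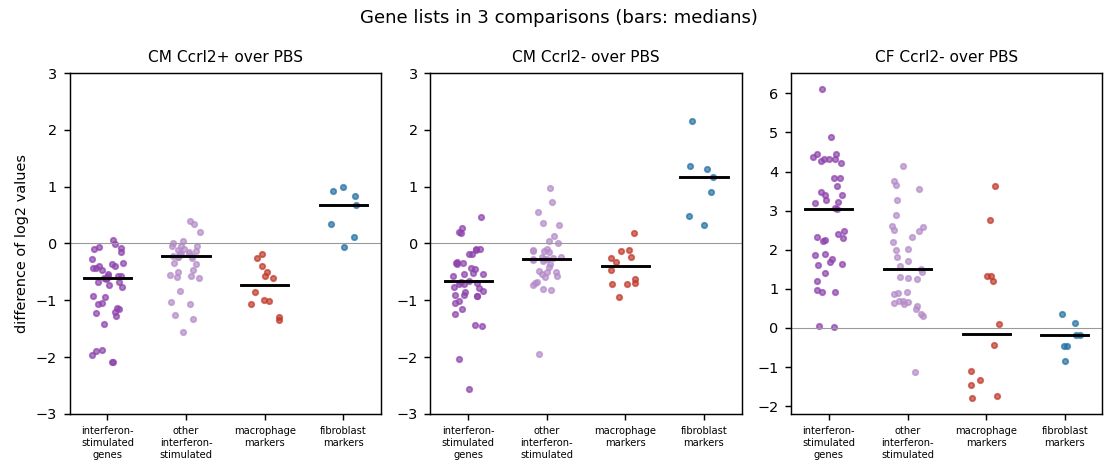
Differences of log2 values (vertical axes, which differ in range) for the 40 interferon-stimulated genes, 35 others, 12 macrophage and 7 fibroblast markers in CM with Ccrl2+ over PBS, CM with Ccrl2- over PBS and CF with Ccrl2- over PBS, 1 point per gene with the list's median as a bar. In cardiomyocytes the interferon-stimulated and macrophage medians lie below 0 and the fibroblast medians above it.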

How the data were processed

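The deposited log2 values were made by the authors; per the submitters' processing notes the software was Affymetrix Expression Console. Its summary algorithm and the genome build were not given in the sources used here. That the scale is log2 was read from the range of the values. The sorted values of the 6 arrays differed by 0.09 on average and by 0.3 at most, so the arrays share nearly 1 distribution. Of 28846 probe sets, 19572 had 1 gene symbol in the platform annotation, which gave 19505 genes (for 55 symbols with several probe sets, the one with the highest mean). Differences were subtractions of 2 arrays, counted at 2-fold where the higher value reached 6.55. A difference against a value below the floor is given as "at least", measured from the floor. Scripts used Python 3.11.15, numpy 2.4.6, pandas 2.3.3, statsmodels 0.14.6 and matplotlib 3.10.9, and the counting was checked on simulated data. The simulated noise was that between both secretome arrays of CM, and changes were placed only in genes well above the floor. The check therefore does not cover changes near the floor or the larger differences among fibroblast arrays. Genes were described in full where they had the largest or smallest difference of their role in CF with Ccrl2- over PBS, or reached 2-fold in CM. From most further lists only some genes were named, while every type I interferon ligand and receptor gene listed and found on the array was given. The 41 genes and all lists were chosen with earlier results of these data known. Alternatives were the floor, the fold threshold, quantile normalization, a loess trend and the mean of probe sets; a floor on both arrays and leaving out the Ifit1, Ifit3 and Ifit3b genes were added after seeing the data.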

Additional observations from a re-analysis of the deposited data

Results flagged for a closer look

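Several genes stood 2-fold apart from PBS in opposite directions in the 2 cell types. With the Ccrl2- secretome, the difference from PBS in CF minus that in CM was 8.15 for Ifit1, 6.77 for Rsad2, 6.34 for Oasl2, 5.76 for Ifit3b, 5.62 for Usp18, 5.47 for Ifit3, 4.25 for Mx2 and 3.35 for Parp10, each higher than PBS in CF and lower in CM. The values of Ifit1 and Rsad2 include a PBS fibroblast value below the floor, and that of Mx2 a cardiomyocyte value below it. For the median of the 40 genes it was 3.72. With the Ccrl2+ secretome it was 2.72 for Ifi207 and 0.73 for the median of the 40 genes. With 1 array per group the difference between the cell types was not tested.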

How the results depend on the processing

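Of 182 recomputed values, 166 stayed and 16 moved. A count stayed if it was within 1.5 times the reported one, and a median if it shifted by less than 1.5-fold. For small medians this limit is wide. The median of 0.13 for CF with Ccrl2+ over PBS, for example, could have reached 0 and still counted as stayed. Those that stayed include the values from averaging probe sets, which could not move, and many counts that were 0 and remained 0. A count has no direction, and the median of each comparison kept its sign over the alternatives. With the floor at the 95th percentile of the negative controls, 10.51, fewer genes could be counted. In CF with Ccrl2-, 21 of 21 past it were 2-fold higher than in PBS (34 of 36 as reported). With Ccrl2+, 20 of 21 were lower than with Ccrl2- (34 of 36), and 0 of 8 were lower than in PBS (1 of 29). In CF PBS, 1 of 11 was higher (2 of 32) and 3 of 11 lower (10 of 32) than in CM PBS. In CM, 4 of 10 were lower with Ccrl2+ than in PBS (11 of 32) and 2 of 10 with Ccrl2- (8 of 32). At a 3-fold threshold, which by construction counts fewer genes, 0 were higher (2) and 0 lower (1) in CF with Ccrl2+ than in PBS, 1 was higher in CF PBS than in CM PBS (2), 5 were lower in CM with Ccrl2+ than in PBS (11) and 2 with Ccrl2- (8). Among genes past the floor on both arrays, the median was 2.41 for CF with Ccrl2- over PBS (3.21 among genes past the floor on either array) and -2.6 for CF with Ccrl2+ over Ccrl2- (-3.21). Without Ifit3b, Ifit1 and Ifit3, 0 were lower in CF with Ccrl2+ than in PBS (1) and 5 were lower in CM with Ccrl2- than in PBS (8). Over the alternatives the median ran from 2.41 to 3.4 for CF with Ccrl2- over PBS, from -0.81 to -0.61 for CM with Ccrl2+ over PBS and from -0.7 to -0.58 for CM with Ccrl2- over PBS. Averaging probe sets changed nothing, since each gene had 1. With 1 array per group no array could be left out. No paired analysis was possible because each group had 1 array and the labels give no replicate numbers. Many values lie in the range of the negative controls, which limits what dim genes can show.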
